A study of Mus musculus with 6 samples.

Results

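The genes of sterol and fatty acid synthesis, with the SREBP transcription factors and LXR receptors that regulate them, were compared between double-knockout and wild-type early T cell progenitors. The set was fixed as a list of 37 gene symbols, in 4 groups: 17 enzymes of sterol synthesis, 9 of fatty acid synthesis, 6 SREBP regulators, and 5 LXR receptors and LXR targets. All 37 symbols are among the 22609 rows of the authors' deposited table, and 36 of them are among its 16241 genes with a p-value. The remaining symbol, Hmgcs1, the cytosolic enzyme that makes the HMG-CoA of the mevalonate pathway, is listed at 0 in both groups. No level is given for it here.

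RNA was sequenced from 6 libraries of early T cell progenitors of C57BL/6 fetal thymus, the age in days not being in the labels. The 3 control libraries are from Wild type mice, sorted as CD4-CD8-Lin-CD44+CD25-ckit+ cells. The 3 double-knockout (dKO) libraries are from mice with floxed E2A and HEB alleles and a Cre recombinase under the Il7r gene (genotype E2Afl/flHEBfl/flIL7RCre), sorted through the same gate with YFP+ added, so genotype and the YFP sort cannot be told apart. E2A (gene Tcf3) and HEB (gene Tcf12) are E proteins, helix-loop-helix transcription factors of lymphocyte development. In the authors' deposited table Tcf3 was 24.6-fold and Tcf12 6.84-fold lower in dKO. The labels leave unsaid whether the libraries of a group come from different mice. The p-values therefore speak only of variation among these 6 libraries, part of which may be technical.

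The values are group means of normalised counts (read counts divided by a size factor per library), with the authors' adjusted p-value for each gene. No SD per gene comes with them. Over all genes the means add up to 22.1 M (control) and 23.4 M (dKO) normalised counts. A gene is called higher or lower at an authors' adjusted p under 0.05. For genes with a mean of 50 to 100, the whole reads of each library could be worked back from the mean, and the median coefficient of variation between the 3 libraries was 26.8% in control and 30% in dKO. The libraries were amplified with a low-input kit, so reads are not independent molecules. In bulk RNA, fewer cells of a type and less RNA per cell cannot be told apart.

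Cells make cholesterol from acetyl-CoA through mevalonate, isoprenoid pyrophosphates, squalene and lanosterol. The transcription of these enzymes is driven chiefly by SREBP2 (gene Srebf2), and that of fatty acid enzymes by SREBP1 (gene Srebf1). Both are held in the endoplasmic reticulum by INSIG proteins and escorted to the Golgi by SCAP when sterol is scarce. LXR receptors (Nr1h2 and Nr1h3), as partners of RXR, are switched on by oxysterols when sterol is plentiful and raise cholesterol export genes, and they also raise Srebf1. Proliferating lymphocytes are known to rely on SREBP-driven lipid synthesis for new membrane.

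The enzymes of sterol synthesis were for the most part lower in dKO, by modest amounts, and the desaturase genes Fads2 and Fads1 were lower by larger amounts, while Abca1 and Srebf1 were higher. Of the 36 tested members, 17 fell, 6 rose and 13 did not pass. This is 63.9% called, with 47.2% lower and 16.7% higher. Over all 16241 tested genes 29% were called, 13.8% lower and 15.1% higher. Abundant genes are called more often, and 35 of the 36 tested members had a mean over both groups of at least 100. Of the 10302 tested genes with such a mean, 40.4% were called, 19.1% lower and 21.2% higher. The share of members that rose was thus near or below the background, and the share that fell was above it. The members were chosen with earlier results of these data known, so these shares describe them and are no independent test. The median log2 change of the 36 members was -0.33, against -0.0105 for all tested genes and 0.0055 for those with a mean of at least 100. Of the 23 called members, 9 differed by at least 1.5-fold, 5 lower and 4 higher.

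**Figure D1:**
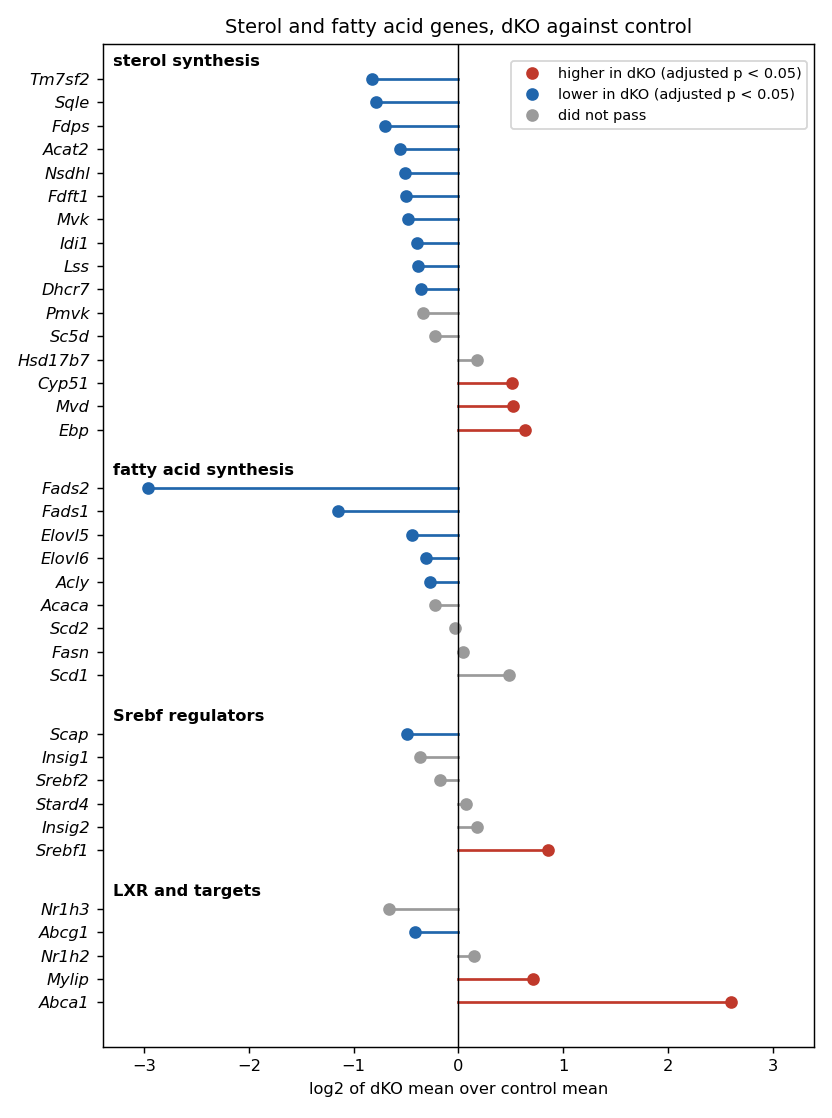
Log2 of the dKO group mean over the control group mean (x axis) for each of the 36 tested members, in 4 groups, with colour for genes past the authors' adjusted p under 0.05. All 16 points of sterol synthesis lie between -0.83 and 0.64, whereas Fads2 lies at -2.97 and Abca1 at 2.60.

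Most enzymes of sterol synthesis fell. Of the 16 tested 10 fell, 3 rose and 3 did not pass (62.5% lower and 18.8% higher), with a median log2 change of -0.40. At the entry, Acat2, a cytosolic thiolase that joins acetyl units, fell 1.47-fold (5071 in control, 3452 in dKO) in the authors' deposited table, with an adjusted p of 2.17e-06. Mvk, mevalonate kinase, fell 1.40-fold (593 in control, 423 in dKO) in the authors' deposited table, with an adjusted p of 0.0418. Pmvk, the kinase of the following step, stood at 628 and 496 in the authors' deposited table, short of the threshold (authors' adjusted p = 0.172). Mvd, the decarboxylase that makes isopentenyl pyrophosphate, went the other way in the authors' deposited table, 1.44-fold higher from 1003 to 1441 (authors' adjusted p = 0.00186).

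All 5 members from isopentenyl pyrophosphate to lanosterol fell. Idi1, the isomerase of isopentenyl pyrophosphate, fell 1.32-fold (4419.65 in control, 3348 in dKO) in the authors' deposited table, with an adjusted p of 0.00135. Fdps, which makes farnesyl pyrophosphate, fell 1.63-fold (5669 in control, 3478 in dKO) in the authors' deposited table, with an adjusted p of 3.74e-06. Fdft1, squalene synthase, fell 1.41-fold (1848 in control, 1309 in dKO) in the authors' deposited table, with an adjusted p of 0.000881. Among these steps Sqle, the squalene epoxidase and a rate-limiting enzyme, had the smallest adjusted p: it fell 1.73-fold (4460 in control, 2579 in dKO) in the authors' deposited table, with an adjusted p of 2.29e-11. Lss, which closes the ring to lanosterol, fell 1.31-fold (1399.8 in control, 1068 in dKO) in the authors' deposited table, with an adjusted p of 0.0220. For 2 of these enzymes the counts are less certain. In GENCODE M21, 20.9% of the exon bases of Fdft1 lie on the opposite strand of Ctsb exons, and 77.4% of those of Fdps are shared with the gene model Gm43738. For Cyp51, Srebf1 and Tm7sf2 the share in another gene was at most 4.22%. Whether the authors' counting used strand is not given in the sources used here. Ctsb, a cathepsin, rose in the authors' deposited table, from 3614 to 5566 (authors' adjusted p = 7.57e-08).

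From lanosterol to cholesterol the enzymes moved in both directions. Cyp51, the lanosterol demethylase, rose 1.42-fold (3553 in control, 5058 in dKO) in the authors' deposited table, with an adjusted p of 0.0173. Ebp, the sterol isomerase, rose 1.56-fold (986 in control, 1535 in dKO) in the authors' deposited table, with an adjusted p of 6.37e-05. Nsdhl, which takes part in removing the C4 methyl groups, fell 1.42-fold (1083 in control, 760 in dKO) in the authors' deposited table, with an adjusted p of 0.00494. It was Tm7sf2, a sterol reductase, that fell most by fold in this group, 1.78-fold (295 in control, 166 in dKO) in the authors' deposited table, with an adjusted p of 0.0139. Dhcr7, the reductase of the last step of the Kandutsch-Russell route, fell 1.28-fold (2004 in control, 1568 in dKO) in the authors' deposited table, with an adjusted p of 0.0227. Hsd17b7 (427 and 483) and Sc5d (1352 and 1159), of ketone reduction and desaturation, were short of the threshold in the authors' deposited table.

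Reads of single libraries could be worked back for some of these enzymes. The dKO libraries of Tm7sf2 were resolved at 198, 145 and 155 normalised counts. The control mean of Tm7sf2 allowed 4 solutions that ran from 43.7 to 779.9. In the solution of smallest SD (290, 267 and 328) the groups did not overlap, and in the others they did. For Mvk and Pmvk, 14 pairings of solutions were possible. For each gene the 1 pairing without overlap was that of smallest SD in both groups. Only 1 solution of a group can be the true one, so the number of overlapping pairings does not tell how likely overlap is. Hsd17b7 overlapped in all of its 10 pairings.

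Further genes around this pathway, from a list that is no part of the 37, were mixed. Of 13 sterol and isoprenoid genes, 2 rose, 2 fell and 9 missed the threshold, with a median log2 change of 0.0488. The called share of 30.8% was below the 40.4% of tested genes with a mean of at least 100, which all 13 reached. Sc4mol, the C4 methyl oxidase, fell 1.46-fold (2537 in control, 1741 in dKO) in the authors' deposited table, with an adjusted p of 8.2e-05. Lbr, a sterol reductase that is also the lamin B receptor, rose 1.29-fold, and Acat1, the mitochondrial thiolase, rose 1.38-fold, in the authors' deposited table. Fnta (2039 and 2418) and Rabggta (1192 and 1478), subunits of enzymes that prenylate proteins, and Dhdds (1139 and 1066), of dolichol synthesis, missed the threshold in the authors' deposited table.

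The promoters of the sterol genes share letters that the choice of members did not use. SREBPs bind sterol regulatory elements weakly alone and are known to act with NF-Y, which binds CCAAT, and Sp1, which binds GGGCGG. RefSeq promoter windows (GRCm38.p6, 250 bases before to 50 after each start, both strands searched, any window of a gene) were found for 29 of the 37 members. None was used for Fdps, Fdft1, Sqle, Fads1, Scd1, Scd2, Stard4 and Abcg1. CCAAT was in 13 of 14 sterol synthesis genes (92.9%) and 21 of the 29 members (72.4%), against 43.9% of the 7434 tested genes with a mean of at least 100 that have a window and 41.1% of all 27025 genes with one. GGGCGG was in 13 of 14 sterol synthesis genes (92.9%) and 22 of the 29 members (75.9%), against 70.5% and 38.2%. Its share over the 29 members was thus near that of the 7434 genes. CCAAT was in 6 of the 7 sterol genes with a window that fell and in 3 of the 3 that rose. The sterol regulatory element core TCACNCCAC was in 1 member, Hmgcs1 (1.36% of the 7434 genes held it), and the overlapping CACCCCAC in 2, Hmgcs1 and Acat2 (3.7%). Of the E-boxes that E proteins can bind, CAGCTG was in 3 of 29 members (10.3%, against 16.8% of the 7434 genes) and CAGGTG in 7 (24.1%, against 19.7%). A match is a description of letters and no evidence of binding. A missing match concerns these windows and these letters alone, so a site with other letters would be missed.

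The 200 bases before the start of 4 sterol genes are given 5′ to 3′ on the gene's strand. They were chosen to set 1 gene with a sterol element (Hmgcs1) and 1 gene that fell (Lss) beside 2 that rose (Mvd and Ebp). Capitals mark every searched motif. A motif on the other strand appears as its reverse complement, so that CCAAT reads ATTGG. The sequences are from RefSeq, GRCm38.p6, a build other than the mm9 of the authors' processing.
Hmgcs1 (chr13:119690151-119690350, plus strand): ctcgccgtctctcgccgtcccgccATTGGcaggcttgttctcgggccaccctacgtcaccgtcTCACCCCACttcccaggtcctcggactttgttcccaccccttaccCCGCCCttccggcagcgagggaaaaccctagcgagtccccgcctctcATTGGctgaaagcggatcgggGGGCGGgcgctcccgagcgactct
Lss (chr10:76531405-76531604, plus strand): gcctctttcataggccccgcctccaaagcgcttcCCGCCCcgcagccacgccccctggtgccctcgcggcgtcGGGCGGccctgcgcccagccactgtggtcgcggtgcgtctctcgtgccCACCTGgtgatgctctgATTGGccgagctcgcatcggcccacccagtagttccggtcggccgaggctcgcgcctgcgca
Mvd (chr8:122443423-122443622, minus strand): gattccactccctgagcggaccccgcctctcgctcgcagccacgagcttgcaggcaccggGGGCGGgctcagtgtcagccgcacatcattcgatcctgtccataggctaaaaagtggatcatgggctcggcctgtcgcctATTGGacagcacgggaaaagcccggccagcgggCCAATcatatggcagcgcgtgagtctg
Ebp (chrX:8193513-8193712, minus strand): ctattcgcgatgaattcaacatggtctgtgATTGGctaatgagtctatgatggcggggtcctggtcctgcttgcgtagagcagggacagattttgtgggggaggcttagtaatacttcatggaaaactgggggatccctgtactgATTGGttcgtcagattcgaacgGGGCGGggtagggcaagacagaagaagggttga

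In Hmgcs1 the TCACNCCAC match starts 137 bases before the start of the gene and lies between CCAAT matches at 176 and 45 bases. Lss has its CCAAT match 62 bases before the start, Mvd at 60 and 27 bases, and Ebp at 170 and 55 bases. Lss also holds the E-box CAGGTG, on the other strand, 79 bases before the start.

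**Figure D2:**
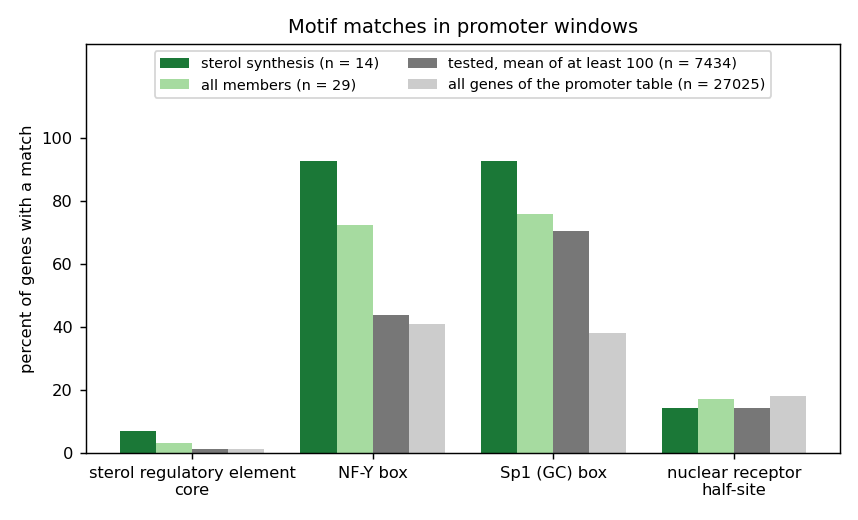
Percent of genes with a match in a promoter window (y axis) for 4 motifs, in the 14 sterol synthesis genes, the 29 members with a window, the 7434 tested genes with a mean of at least 100, and all 27025 genes with a window. The NF-Y box is the motif CCAAT and the Sp1 box is GGGCGG; both stand at 92.9% of the sterol genes.

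In fatty acid synthesis the enzymes of polyunsaturated chains fell, and the core synthase genes did not pass. Of the 9 genes 5 fell, none rose and 4 missed the threshold, with a median log2 change of -0.28. The 2 Fads desaturases had the largest folds of the group. Fads2, the delta-6 desaturase, fell 7.83-fold in the authors' deposited table, from a mean of 5719 to 730.0, or 12.8% of control (authors' adjusted p = 6.71e-129). The dKO mean of Fads2 allowed 2 sets of whole reads over the 3 libraries, giving either 732, 683 and 775 or 385, 1029.5 and 775 normalised counts. In both cases the highest dKO library stood far under the control mean of 5719, and the control libraries could not be resolved. Fads1, the delta-5 desaturase that acts after it, fell 2.22-fold (3341 in control, 1502 in dKO) in the authors' deposited table, with an adjusted p of 1.01e-13.

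The elongases fell by less. Elovl5, which extends polyunsaturated chains between those desaturation steps, fell 1.36-fold (5372 in control, 3950.2 in dKO) in the authors' deposited table, with an adjusted p of 0.000153. Elovl6, which extends palmitate to stearate, fell 1.24-fold (1957 in control, 1575 in dKO) in the authors' deposited table, close to the threshold (authors' adjusted p = 0.0483). Acly, which makes cytosolic acetyl-CoA from citrate, fell 1.21-fold (11483 in control, 9485 in dKO) in the authors' deposited table, with an adjusted p of 0.0154. Of the core steps, Fasn, the fatty acid synthase, had means of 10268 and 10559.7, and Acaca, the acetyl-CoA carboxylase, 2544 and 2183 in the authors' deposited table. Scd2, a stearoyl-CoA desaturase, had 29232 and 28643 in the authors' deposited table (authors' adjusted p = 0.895).

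Scd1, its close paralog, stood at 141 and 197 in the authors' deposited table, short of the threshold (authors' adjusted p = 0.547). The Scd genes are similar in sequence, and how the authors' counting treated reads that fit several of them is not given in the sources used here. The 3 dKO libraries of Scd1 were resolved without ambiguity at 93.4, 246 and 252 normalised counts, so the library of size factor 1.16 lay well under the others. The control mean allowed 125, 128 and 171 or 370, 25.2 and 29.1. The groups overlapped under either solution. If the library of size factor 1.16 was left out, the log2 change of Scd1 was 0.82 in place of 0.48.

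Of 22 further genes of fatty acid synthesis and activation, 4 rose, 4 fell and 14 missed the threshold (36.4% called). This called share lay between the background shares, 29% for every tested gene and 40.4% for tested genes averaging 100 or more. That level was reached by 15 of the 22. The share that rose was 18.2%, beside 15.1% and 21.2% in these backgrounds. The share that fell was also 18.2%, beside 13.8% and 19.1%. The median log2 change was 0.10 over the 21 genes above 0 in both groups, and 0.0699 with Elovl3, listed at 0 in dKO, set to the floor of 0.963 that 3 reads over the group give. Slc25a1, the mitochondrial citrate carrier that supplies Acly, fell 1.97-fold (2631 in control, 1338 in dKO) in the authors' deposited table, with an adjusted p of 1.45e-13. Acsl1, an acyl-CoA synthetase, fell 2.27-fold (611 in control, 269 in dKO) in the authors' deposited table, with an adjusted p of 2.38e-07. Ptpla, an acyl dehydratase of the elongation cycle, fell 1.94-fold, and Mcat, of mitochondrial fatty acid synthesis, fell 1.75-fold, in the authors' deposited table. On the other side Elovl7 rose 2.32-fold (114 in control, 264 in dKO) in the authors' deposited table, with an adjusted p of 0.0066. Acsl4, which activates arachidonate, rose 1.42-fold, Elovl1 rose 1.30-fold and Ptplad1 rose 1.29-fold in the authors' deposited table. Tecr (6632 and 7116), Acsl5 (5505 and 5654) and Hsd17b12 (3585 and 3606) were those of highest mean that missed the threshold in the authors' deposited table.

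**Figure D3:**
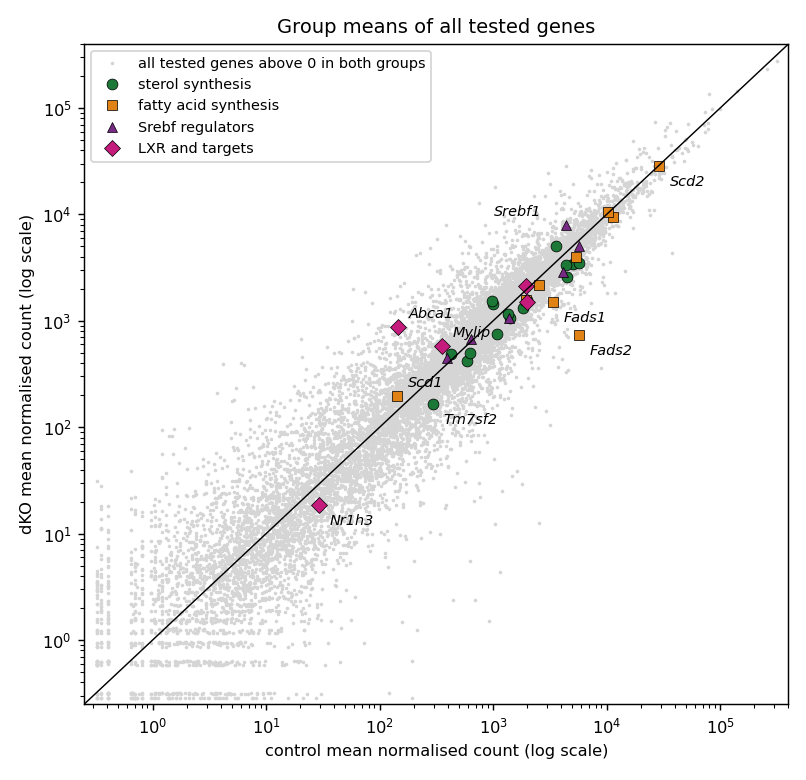
Control mean (x axis) against dKO mean (y axis), both as normalised counts on log scales, for all tested genes above 0 in both groups (grey) and the 36 tested members (coloured by group); the line marks equal means. Fads2 and Abca1 lie far from the line on opposite sides, and Scd2, the member with the highest means, lies close to it.

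The regulators of SREBP did not move as a group. Of 6, 1 rose, 1 fell and 4 missed the threshold, with a median log2 change of -0.0526. Srebf1 rose 1.81-fold (4418 in control, 8017 in dKO) in the authors' deposited table, with an adjusted p of 6.77e-07. Srebf2 stood at 5695 and 5039 in the authors' deposited table, short of the threshold (authors' adjusted p = 0.210). Scap, the escort of SREBPs, fell 1.41-fold (4094 in control, 2904 in dKO) in the authors' deposited table, with an adjusted p of 4.05e-05. Gene-level counts do not separate the SREBP1a and SREBP1c transcripts of Srebf1, and mRNA does not report the cleaved, active protein.

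Insig1, which retains SCAP and is itself an SREBP target, stood at 1384 and 1069 in the authors' deposited table, short of the threshold (authors' adjusted p = 0.0935). Insig2, its paralog, had 394 and 446 in the authors' deposited table. Stard4, a sterol carrier, had 643 and 676 in the authors' deposited table, and neither passed. For Insig2 the dKO mean allowed 472, 453 and 413 or 819, 106 and 413 normalised counts, and 4 solutions in control ran from 99.6 to 875, so overlap held in all 8 pairings. Of 10 further genes of SREBP cleavage and INSIG turnover, 1 fell and 9 missed the threshold, with a median log2 change of -0.0341. The 10% that fell was below the 19.1% over tested genes averaging 100 or more, a level that all 10 reached. The gene that fell was Erlin1, 1.40-fold (1197.5 in control, 856 in dKO) in the authors' deposited table, with an adjusted p of 0.00454. Vcp (22428 and 20537) and Nploc4 (3345 and 3485), which pull ubiquitinated proteins from the membrane, missed the threshold in the authors' deposited table. So did the proteases that release SREBP, Mbtps1 (3608 and 3142) and Mbtps2 (295 and 251), in the authors' deposited table.

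The largest rise by fold among the 36 tested members was that of Abca1, an LXR target. Of the 5 LXR genes 2 rose, 1 fell and 2 missed the threshold, with a median log2 change of 0.15. Thus 40% rose and 20% fell, against 21.2% and 19.1% of tested genes with a mean of at least 100. Of the 5, 4 reached that mean. Abca1, the pump that loads cholesterol onto apolipoproteins at the plasma membrane, had 179, 124 and 135 normalised counts in the 3 control libraries, recovered without ambiguity. Its dKO mean of 884 allowed 856, 923 and 873 or 1202.5, 576 and 873. Under either solution every dKO library of Abca1 was above every control library. The rise was 6.06-fold in the authors' deposited table (authors' adjusted p = 4.2e-33), and leaving out each control library in turn gave a log2 change between 2.50 and 2.77.

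Mylip, the ubiquitin ligase also called IDOL that removes lipoprotein receptors, rose 1.63-fold (356 in control, 582 in dKO) in the authors' deposited table, with an adjusted p of 0.00217. Its control mean allowed 4 solutions, from 64.4 to 799 normalised counts, and its dKO mean 2, either 511, 622 and 613 or 164, 969 and 613. Of the 8 pairings, 1 was without overlap: 309, 335 and 425 in control with 511, 622 and 613 in dKO. It had the smallest SD in both groups, and which pairing is true is not known. Abcg1, a further LXR target that exports cholesterol to high density lipoprotein, fell 1.33-fold (1986 in control, 1491 in dKO) in the authors' deposited table, with an adjusted p of 0.00551. The targets in the set therefore did not move one way.

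The receptors themselves did not pass. Nr1h2, which encodes the widely expressed LXR beta, stood at 1933 and 2143 in the authors' deposited table (authors' adjusted p = 0.467). Nr1h3, which encodes LXR alpha, the form of liver and macrophages, had 46.9, 28.4 and 12.1 normalised counts in the control libraries and 24.2, 19.5 and 11.6 in the dKO libraries. The groups overlapped, and the authors' adjusted p was 0.652. Without the control library of size factor 1.02, which held the highest count, the log2 change of Nr1h3 was -0.14 in place of -0.66.

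The promoters of Abca1 and Mylip are shown because both genes rose. They are likewise the 200 bases before the start, from RefSeq, GRCm38.p6, with searched motifs in capitals.
Abca1 (chr4:53159896-53160095, minus strand): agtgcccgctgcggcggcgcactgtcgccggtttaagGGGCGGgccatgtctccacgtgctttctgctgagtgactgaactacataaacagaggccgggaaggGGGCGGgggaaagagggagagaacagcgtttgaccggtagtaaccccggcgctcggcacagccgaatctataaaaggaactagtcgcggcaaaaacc
Mylip (chr13:45389542-45389741, plus strand): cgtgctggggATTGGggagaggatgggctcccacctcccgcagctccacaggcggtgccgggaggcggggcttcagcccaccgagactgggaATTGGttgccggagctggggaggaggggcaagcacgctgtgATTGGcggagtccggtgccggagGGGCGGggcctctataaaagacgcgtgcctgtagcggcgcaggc

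Abca1 held GGGCGG at 163 and 97 bases before the start and no CCAAT in this stretch, and Mylip held CCAAT at 190, 108 and 67 bases and GGGCGG at 44 bases. The hexamer AGGTCA, which nuclear receptors such as LXR and RXR can bind as repeats, was in neither window. It was in 5 of the 29 members (17.2%), against 14.4% of the 7434 genes. Only the exact hexamer was searched, so its absence does not show that a window lacks a half-site with other letters.

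**Figure D4:**
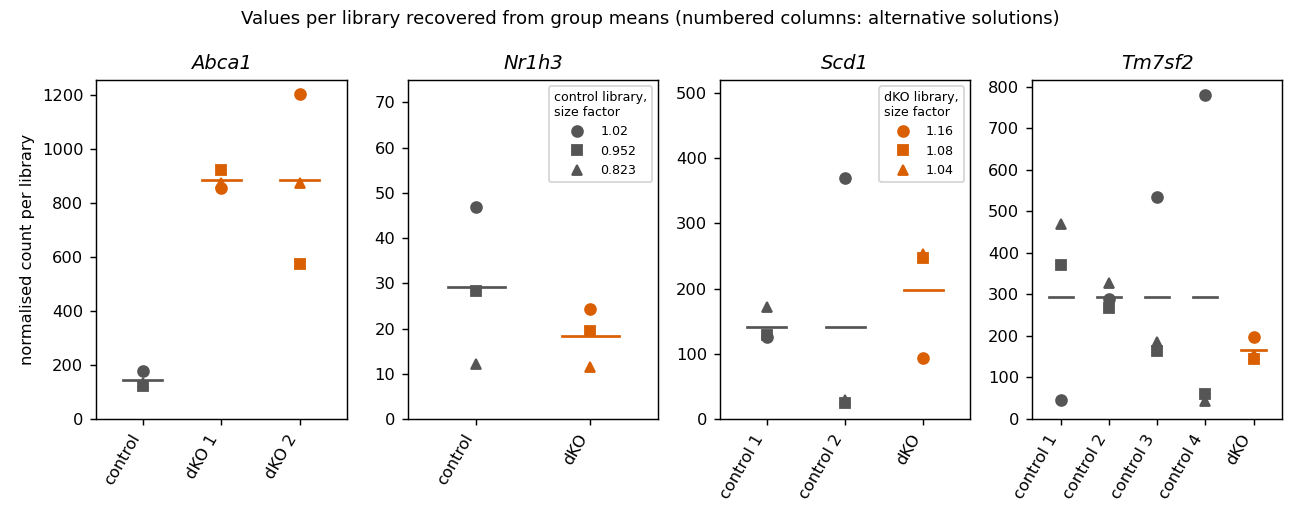
Normalised count in each library (y axis) for the 4 members with at least 1 group resolved without ambiguity, with marker shape for the library and a bar for the group mean; numbered columns are alternative sets of whole reads that give the same mean. Every dKO point of Abca1 lies above every control point, while Nr1h3 and Scd1 overlap.

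Of 10 RXR partners and LXR targets outside the set, 5 rose, 1 fell and 4 missed the threshold. Thus 50% rose, against 15.1% of all tested genes and 21.2% of those whose mean reached 100. The list was chosen with earlier results of these data known, so these shares describe it and are no independent test. The median log2 change was 1.17 over the 9 genes above 0 in both groups. It was 0.71 over all 10 with Abcg5, listed at 0 in control, set to the floor of 1.21 that 3 reads over the group give. Rxrg, an RXR receptor gene, rose 8.23-fold (343 in control, 2822 in dKO) in the authors' deposited table, with an adjusted p of 2.69e-15. Rxra rose 4.67-fold (866 in control, 4046 in dKO) in the authors' deposited table, with an adjusted p of 2.93e-17. Rxrb, the other partner, fell 1.56-fold (2967 in control, 1902 in dKO) in the authors' deposited table, with an adjusted p of 0.00367.

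Among targets, Arl4c, a small GTPase, rose 4.65-fold (568 in control, 2644 in dKO) in the authors' deposited table, with an adjusted p of 1.2e-22. Lpcat3, which builds polyunsaturated chains into phospholipids, rose 2.29-fold (1956 in control, 4471 in dKO) in the authors' deposited table, with an adjusted p of 6.84e-24. Smpdl3a rose 2.24-fold (766 in control, 1718 in dKO) in the authors' deposited table, with an adjusted p of 1.97e-14. Abca7 (3901 and 3214) missed the threshold in the authors' deposited table, and Abcg5, Abcg8 and Nr1h4 had means under 9 in both groups. Macrophages are known for high levels of LXR targets. Of 13 macrophage and dendritic cell markers 10 were tested. Emr1 rose (53.3 and 278), and Csf1r (632 and 164) and Lyz2 (301 and 60.5) fell in the authors' deposited table. Thus 10% rose and 20% fell, against 15.1% and 13.8% of all tested genes. Called or not, 7 were lower and 3 higher. The summed means of the 13 markers, in large part Csf1r and Lyz2, were 1216 in control against 771 in dKO in the authors' deposited table. Marco, Clec9a and Siglech are listed at 0 in both groups. Whether macrophage content had a part in the changes of LXR targets was not tested.

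**Figure D5:**
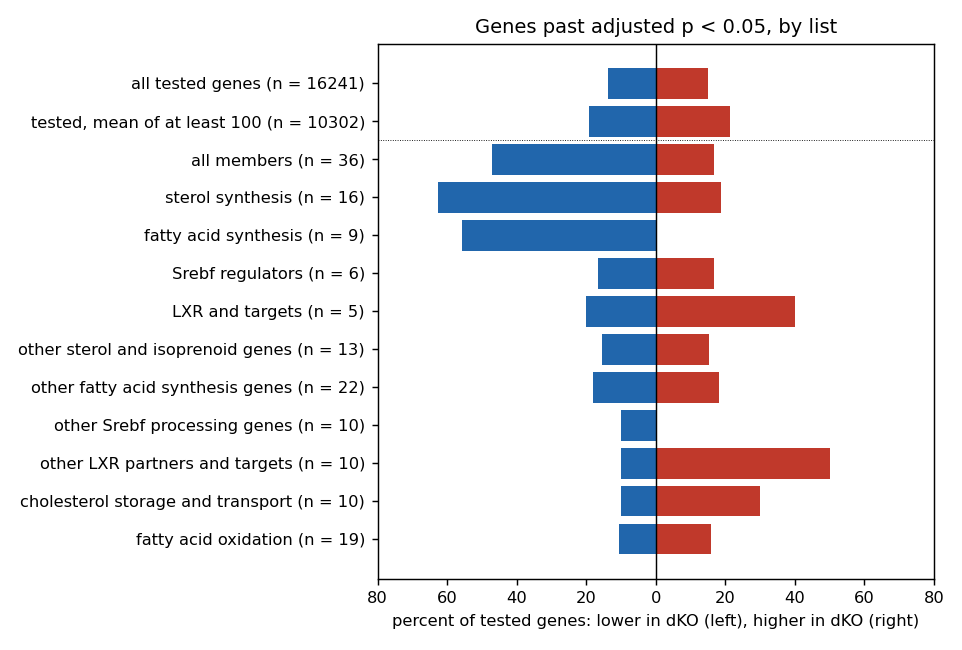
Percent of tested genes past the authors' adjusted p under 0.05, lower in dKO to the left and higher to the right (x axis), for all tested genes, those with a mean of at least 100, and each list with its number of tested genes. Sterol synthesis reaches 62.5% on the lower side and the wider LXR list 50% on the higher side. The members and lists were chosen with earlier results of these data known.

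Cholesterol storage and transport genes were also described beside the set. Of 10, 3 rose, 1 fell and 6 missed the threshold, with a median log2 change of 0.0730. The called share of 40% was near the 40.4% of tested genes with a mean of at least 100, which all 10 reached. Lipa, the lysosomal lipase that frees cholesterol from its esters, rose 1.98-fold (596 in control, 1179 in dKO) in the authors' deposited table, with an adjusted p of 1.94e-08. Soat2 and Nceh1, which make and cleave cholesterol esters, rose 1.53-fold and 1.40-fold in the authors' deposited table. Scarb1, a lipoprotein receptor, fell 1.52-fold (2716 in control, 1788 in dKO) in the authors' deposited table, with an adjusted p of 5.3e-06. Npc2 (3844 and 3224), Stard3 (1579 and 1379) and Npc1 (1024 and 819.9) were those of highest mean that missed the threshold in the authors' deposited table.

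Markers of cell identity also differed between the groups. Of 9 progenitor markers, Kit, Ptprc and Gata3 rose, Flt3, Cd34, Hes1, Notch1 and Tcf7 fell and Cd44 did not pass. The progenitor shares were 33.3% higher and 55.6% lower, beside 15.1% and 13.8% over all tested genes. Of 9 innate lymphoid markers 8 rose and none fell. The share that rose was 88.9%, beside 15.1% over all tested genes and 21.2% over tested genes averaging 100 or more. Summed means of the innate lymphoid markers were 12435 in control against 66479 in dKO in the authors' deposited table. Both marker lists were chosen with earlier results known, so their shares are no independent test. The 7 adipocyte markers had summed means of 5.01 (control) against 13.5 (dKO) in the authors' deposited table, with Plin1, Lep, Cfd and Cidec listed at 0. Erythroid markers summed to 202 and 136 in the authors' deposited table, with Slc4a1 and the 4 globin symbols searched listed at 0. Hmgcs1, an enzyme that cells in general use, is listed at 0 too, so a listing at 0 in this table does not show that a gene, or a cell type it marks, was absent. Thymic epithelial and stromal markers summed to 12363 and 4674 in the authors' deposited table, of which Pdgfrb was 9429.8 and 2152. Of the 9 tested, none rose, Pdgfrb and Pecam1 fell and 7 missed the threshold. The share that fell was 22.2%, against 13.8% of all tested genes. Called or not, 4 of these markers were lower and 5 higher. Among genes whose products the gate excludes, Il2ra, which encodes CD25, was at 8417 and 8536 in the authors' deposited table. The part of these shifts in the changes of lipid genes was not tested.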

How the data were processed

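RNA of sorted cells was amplified with a low-input SMARTer kit and sequenced on an Illumina HiSeq, per the labels' protocols. Build mm9 is named in the submitters' processing notes, with TopHat2 2.0.14, bcl2fastq 1.8.4 and DESeq version 2 as tools, without roles. The gene counter is not given in the sources used here. The signal columns hold base means by group as the authors deposited them, read here as normalised counts per the file headers. The fold column is a ratio of dKO over control as deposited, and log2 changes were computed here from the means. Each p-value, raw and adjusted, was deposited by the authors. Redoing the Benjamini-Hochberg adjustment over all 16241 tested genes gave the adjusted ones within 4.08e-07. No new test per gene was made, because values per library are not in this table.

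The members and lists were chosen with earlier results of these data known. Genes named are all members and, from each further list, up to 6 called genes of smallest adjusted p and the 3 uncalled ones of highest mean. Elovl7, Mcat, Mbtps2, Abcg8, Ctsb and the Fads and Scd neighbours were named after their values were seen. A gene of the further lists that the rule would name is not reported here. Each group mean sums whole reads times a weight per library. The 3 weights of a group were read from the smallest values and refined, giving size factors of 1.02, 0.952 and 0.823 in control and 1.16, 1.08 and 1.04 in dKO; libraries carry no replicate numbers and are given in this order. Every triple of whole reads matching a mean up to 900 within its rounding and the error of the weights was kept. This step was tested on simulated data. Scripts used Python 3.11.15, numpy 2.4.6 and pandas 2.3.3. Alternatives tried were other thresholds (adjusted p under 0.01 or 0.1, a fold of at least 1.5), adjustment over genes with a mean of at least 10, 2 other scalings, a pseudocount of 1, leaving out libraries, and motifs on the gene strand alone.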

Additional observations from a re-analysis of the deposited data

How the results depend on the processing

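The 17 members that fell became 11 at an adjusted p under 0.01 and 5 at one under 0.05 with a fold of at least 1.5. At an adjusted p under 0.01 the calls of Acly, Cyp51, Dhcr7, Elovl6, Lss, Mvk and Tm7sf2 were lost, and at one under 0.1 that of Insig1 was gained. Adjustment over genes with a mean of at least 10 changed no call of a member. Recentring on the median of genes with a mean of at least 100 (a shift of 0.0055 on the log2 scale) or scaling to the same total (0.082) turned no called member, and the total turned Stard4 and Fasn, which did not pass. With motifs on the gene strand alone, the 29 members with a window gave 10 genes with CCAAT in place of 21, 4 with CAGGTG in place of 7 and 3 with AGGTCA in place of 5. Leaving out libraries 1 at a time, where reads were recovered, gave log2 changes of 2.50 to 2.77 for Abca1, -1.03 to -0.14 for Nr1h3, 0.26 to 0.82 for Scd1 and -0.97 to -0.74 for Tm7sf2. For the other members no library could be left out, so that whether 1 library sets their call is unknown. No paired analysis was possible because the columns are group means that carry no replicate numbers. Depth limits Nr1h3, whose means of 29.1 and 18.4 rest on few reads.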

Other observations

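The Fads genes are neighbours (RefSeq annotation of GRCm38.p6). Fads3, chosen after its values were seen, fell 3.31-fold (279.9 in control, 84.5 in dKO) in the authors' deposited table, with an adjusted p of 4.06e-07. Fen1 (6040.04 and 6510.36) and 1810006K21Rik (939 and 1023), in the same neighbourhood, missed the threshold in the authors' deposited table. Fth1, ferritin heavy chain, also near by, fell 1.40-fold in the authors' deposited table, and Incenp rose 1.32-fold. In the Scd neighbourhood Scd3 (32.3 and 22.7) and Scd4 (27.4 and 19.95) missed the threshold in the authors' deposited table, like Scd1 and Scd2, whereas Bloc1s2 fell 1.70-fold and Chuk rose 1.28-fold in the authors' deposited table.

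Fatty acid oxidation genes showed no shared direction. Of 19 tested, 3 rose, 2 fell and 14 missed the threshold, with a median log2 change of -0.0409. The called share was 26.3%, beside 29% of all tested genes. It was below the 40.4% of tested genes with a mean of at least 100, which 15 of the 19 reached. Cpt1a, the carnitine transferase that admits long chains to mitochondria, fell 1.34-fold in the authors' deposited table (2008 in control, 1499 in dKO), and Acads fell 1.36-fold. Acadvl (1773 in control, 2713 in dKO) rose 1.53-fold and Hadha 1.26-fold in the authors' deposited table. Ppargc1a, a coactivator of mitochondrial genes, rose in the authors' deposited table (1.71 in control, close to the floor of 1.21 that 3 reads over the group give, and 45.7 in dKO) (authors' adjusted p = 7.53e-05). Hadhb (3384 and 3406), Ech1 (2272 and 2517) and Hadh (2487 and 2393) were those of highest mean that missed the threshold in the authors' deposited table.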
